A study of Mus musculus with 18 samples.

Results

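The interferon regulatory factors analysed here were *Irf1*, *Irf2*, *Irf3*, *Irf4*, *Irf5*, *Irf7*, *Irf8* and *Irf9*, 8 genes found by symbol among the 20298 genes of the table. Levels are given in RPKM (reads scaled by gene length and by the mapped reads of the library). Interferon regulatory factors are transcription factors whose shared N-terminal domain binds repeats of the letters GAAA in DNA. *Irf4* and *Irf8* encode close relatives that bind largely with partners such as PU.1 and BATF-JUN and are known for directing dendritic cell, monocyte and B cell identity. *Irf3*, *Irf5* and *Irf7* encode factors switched on by sensors of microbial nucleic acid, *Irf9* encodes a DNA-binding subunit of the complex that type I interferon receptors activate, and *Irf1* and *Irf2* encode an activator of interferon-responsive genes and its antagonist.

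RNA-seq was done on Ly6C+ CCR2+ monocytes of C57BL/6 mice, WT or with knock-in (DKI) changes in the N-domains of both *Stat5a* and *Stat5b* that leave STAT5 dimers but no tetramers. The cells were unstimulated (day 0) or were cultured with 20 ng/mL GM-CSF, a cytokine that signals through STAT5, for 3 or 6 days to give monocyte-derived cells (MDCs). Each of the 6 groups had 3 libraries, numbered as replicates 1 to 3, from 3 independent experiments. The knock-in changes were present in the germline, so all cells of these mice carried them and the culture cannot separate effects before and after isolation. The sample labels name liver, whereas the series design names bone marrow. Of 6 hepatocyte markers, none exceeded 0.0471 RPKM summed, and the 7 Ly6C+ monocyte markers summed to 3284 to 4635 RPKM on day 0. The 8 neutrophil and granulocyte precursor markers summed to 1273 to 1692 RPKM on day 0 and to 103 to 1415 RPKM in MDCs. Their part in the changes with GM-CSF was not tested.

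Depth was estimated at 29.5 M to 43.2 M reads per library. *Stat5a* was between 12.1 and 17.1 RPKM in all 6 libraries of day 0, between 27.2 and 62.4 RPKM in WT MDCs and between 9.22 and 14.4 RPKM in DKI MDCs. These mRNA levels cannot show the protein change that defines the genotype. DKI replicate 1 stood apart from the other DKI libraries on both culture days. All 25 genes of a list of type I interferon-stimulated genes were highest there within their group, and their summed level was 6808 RPKM on day 3 and 3518 RPKM on day 6, against 472 to 1275 RPKM in the other DKI MDC libraries. Replicate 1 of both genotypes on days 3 and 6 also carried an earlier year in the library name than the other libraries. In bulk RNA, fewer cells of a type and less RNA per cell cannot be told apart.

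The sequence just upstream of the gene start is shown for the 4 members whose levels varied most between groups or libraries, since STAT5 binds the palindrome TTCNNNGAA. RefSeq windows (GRCm38.p6) were found for all 8 members, 11 windows in all, of which the 250 bases upstream of the listed start were searched. The only window of *Irf5* and a further window each of *Irf1*, *Irf8* and *Irf9* lay wholly inside the annotated gene. No sequence upstream of the annotated *Irf5* gene was therefore searched. The palindrome, which reads the same on both strands, was present in 3 of the 11 windows, those of *Irf1*, *Irf2* and *Irf8*, and in 7.02% of all 32851 promoter windows of the same length. The letters GAAA repeated after a gap of 2 bases, searched on both strands, was present in 1 of the 11, that of *Irf2*, and in 2.98% of all windows. Capitals mark TTCNNNGAA, and the *Irf7* line is shorter because only bases outside the annotated gene are printed.
Irf4 (chr13:30748983-30749232, plus strand): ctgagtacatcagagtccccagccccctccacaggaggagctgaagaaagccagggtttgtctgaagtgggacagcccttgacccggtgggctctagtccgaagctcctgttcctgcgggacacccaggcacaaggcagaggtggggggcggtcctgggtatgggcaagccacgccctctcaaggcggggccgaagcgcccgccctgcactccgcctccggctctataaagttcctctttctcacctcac
Irf8 (chr8:120736108-120736357, plus strand): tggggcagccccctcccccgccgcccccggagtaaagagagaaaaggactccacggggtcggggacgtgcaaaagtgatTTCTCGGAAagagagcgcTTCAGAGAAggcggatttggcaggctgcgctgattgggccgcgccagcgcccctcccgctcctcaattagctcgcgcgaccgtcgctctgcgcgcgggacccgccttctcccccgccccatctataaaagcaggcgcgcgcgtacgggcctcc
Irf7 (chr7:141266500-141266674, minus strand): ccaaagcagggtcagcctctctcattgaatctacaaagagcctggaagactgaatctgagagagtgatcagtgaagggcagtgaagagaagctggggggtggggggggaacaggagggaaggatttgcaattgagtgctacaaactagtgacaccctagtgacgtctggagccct
Irf1 (chr11:53769764-53770013, plus strand): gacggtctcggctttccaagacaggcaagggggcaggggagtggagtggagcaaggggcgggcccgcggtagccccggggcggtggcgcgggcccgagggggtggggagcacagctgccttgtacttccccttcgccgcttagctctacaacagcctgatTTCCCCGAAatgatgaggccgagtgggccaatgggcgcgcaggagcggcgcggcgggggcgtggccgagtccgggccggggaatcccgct
*Irf8* had 2 matches, TTCTCGGAA and TTCAGAGAA, and *Irf1* had 1, TTCCCCGAA, while no match was found in the windows of *Irf4* and *Irf7*. A match describes letters only and is not a measured binding site. The authors state that STAT5 tetramers can bind motifs that depart from the consensus, which this search would miss.

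Unstimulated monocytes of both genotypes had the same order of family levels at its ends, on the RPKM scale that corrects for gene length. *Irf5* was highest, at 247 ± 77.0 RPKM (SD, n = 3) in WT and 252 ± 82.9 in DKI monocytes, and *Irf8* was next, at 110 ± 67.2 and 92.6 ± 43.7 RPKM. *Irf2*, *Irf9*, *Irf1* and *Irf7* followed with ranges that overlapped between neighbours, and then *Irf3*. *Irf4* was lowest, at 3.09, 2.56 and 5.31 RPKM in WT and 2.94, 4.67 and 6.42 RPKM in DKI monocytes, and its libraries did not overlap those of *Irf3*. None of the 8 members passed the test between genotypes on day 0 (limma, adjusted p = 0.999985 for each), where 0% of 9179 genes were called (adjusted p below 0.05, change of more than 1.5-fold), 44 genes had an unadjusted p under 0.05 and a fit of all 18 libraries called 6 genes. The differences ranged from -0.17 for *Irf1* to 0.28 for *Irf4* on the log2 scale. The plasma cell marker *Jchain* was between 31.3 and 253 RPKM in these monocytes, and its part in the *Irf4* level was not tested.

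**Figure D1:**
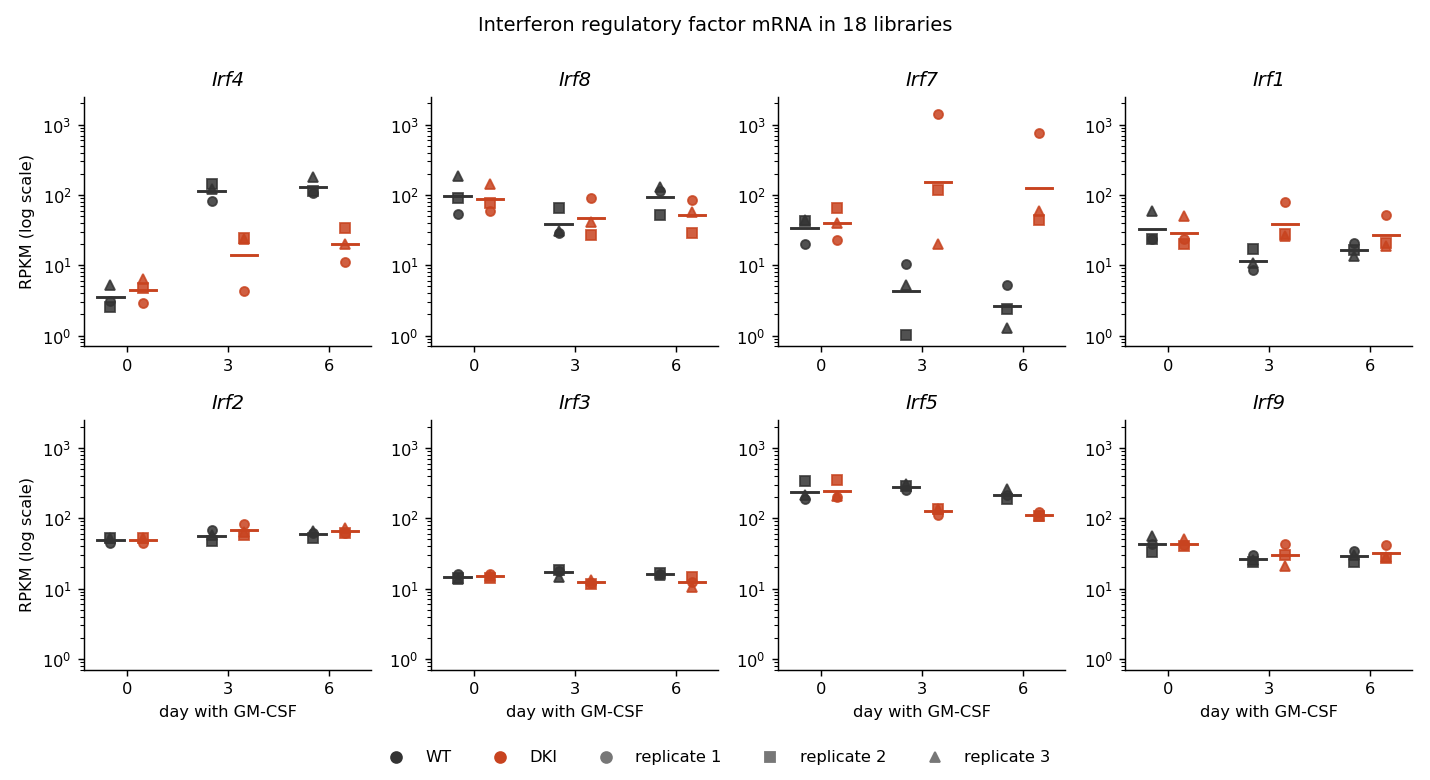
RPKM of each family member (log axis) in the 18 libraries by day with GM-CSF, WT in black and DKI in orange, with the replicate number as symbol and a bar at the mean of log2(RPKM + 1). Irf4 rose from 2.56 to 5.31 RPKM on day 0 to 82.8 to 142 RPKM on day 3 in WT, and Irf7 in DKI replicate 1 reached 1423 RPKM on day 3.

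In culture with GM-CSF, *Irf4* rose more in WT cells than any other member. The WT libraries of day 3 had 82.8, 142 and 120 RPKM and those of day 6 had 107, 114 and 178 RPKM, all above every day 0 library, as were 28.8% of all genes on day 3. From day 0 to day 3 the log2 fold change was 4.65 ± 0.28 (SE; limma, adjusted p = 7.42e-05), and from day 3 to day 6 it was 0.20 ± 0.27 (limma, adjusted p = 0.853). In DKI cells *Irf4* was 4.26, 24.6 and 23.7 RPKM on day 3 and 11.2, 34.0 and 19.9 RPKM on day 6. DKI replicate 1 of day 3 lay within the day 0 range, and the other DKI MDC libraries lay above it. The DKI change from day 0 to day 3 was 1.44 ± 0.63 on the log2 scale (limma, adjusted p = 0.117), and without DKI replicate 1 of day 3 it was 2.20 (limma, adjusted p = 0.00463).

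*Irf4* was lower in DKI than in WT MDCs on both days, and every DKI library lay below every WT library. Of all genes, 36.3% on day 3 and 37.2% on day 6 had genotypes that did not overlap in either direction. On day 3 the same-numbered DKI libraries had 0.0515, 0.173 and 0.197 times the WT level, and on day 6 they had 0.104, 0.298 and 0.112 times the WT level. The log2 fold change was -2.92 ± 0.63 on day 3 (limma, adjusted p = 0.0446) and -2.66 ± 0.41 on day 6 (limma, adjusted p = 0.0235). Of all genes tested, 98.7% changed less on day 3 and 98.4% on day 6. Without replicate 1 of both genotypes, the fold changes were -2.39 on day 3 (limma, adjusted p = 0.0179) and -2.41 on day 6 (limma, adjusted p = 0.112). Leaving out each WT library of day 3 or DKI replicate 2 or 3 ended the day 3 call, with adjusted p between 0.0553 and 0.142, and leaving out WT replicate 1, WT replicate 3 or DKI replicate 3 ended the day 6 call, with adjusted p between 0.0756 and 0.0854. Dendritic cell markers moved in the same direction: 7 markers including *Ccr7*, *Itgax* and *Zbtb46* summed to 1369 to 3711 RPKM in WT and 105 to 392 RPKM in DKI MDCs on day 3, and to 2326 to 4346 and 328 to 474 RPKM on day 6, with no marker at 0 in all libraries of a group. Of these sums, *Ccl22* alone held 413 to 2781 RPKM in WT and 19.2 to 58.7 RPKM in DKI on day 3, and 1392 to 2924 and 56.9 to 154 RPKM on day 6. Read singly, each marker was lower in every DKI library than in any WT library on both days, except *Flt3* on day 3. It overlapped there, at 0.457 to 1.87 RPKM in WT and 0.588 to 1.15 RPKM in DKI. The 9 B cell and plasma cell markers summed to 246 to 405 RPKM in WT and 123 to 204 RPKM in DKI MDCs on day 3, and to 269 to 389 and 122 to 197 RPKM on day 6. In splits of the lists made after seeing the data, these sums were carried by *Xbp1*, at 241 to 402 and 114 to 186 RPKM on day 3 and 260 to 374 and 112 to 171 RPKM on day 6, and the other 8 markers together reached at most 26.5 RPKM in any MDC library. The 7 Ly6C+ monocyte markers summed to 854 to 1247 RPKM in WT and 1528 to 2547 RPKM in DKI on day 3, and to 648 to 1188 and 1426 to 1804 RPKM on day 6. That separation rested on *Csf1r* and *Itgam*, which macrophages also express. The other 5 markers overlapped between the genotypes on both days, at 218 to 328 RPKM in WT and 289 to 1116 RPKM in DKI on day 3, and 136 to 288 and 189 to 412 RPKM on day 6. *Ly6c2* was 11.2, 39.8 and 17.1 RPKM in WT and 775, 49.5 and 73.8 RPKM in DKI on day 3. On day 6 it overlapped, at 13.1, 12.9 and 8.66 RPKM in WT and 158, 10.5 and 5.30 RPKM in DKI. Among the 8 neutrophil and granulocyte precursor markers, *Mmp8* was 83.7 to 283 RPKM in WT and 372 to 1113 RPKM in DKI on day 3, and 84.9 to 489 and 359 to 774 RPKM on day 6. The other 7 overlapped on both days, with sums of 5.26 to 529 RPKM in WT and 40.9 to 515 RPKM in DKI on day 3, and 3.98 to 167 and 11.1 to 540 RPKM on day 6. The part of these cell types in the differences of *Irf4* and the other members was not tested.

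The change of *Irf4* with GM-CSF also differed between genotypes when tested directly. The interaction of genotype with time was -2.94 ± 0.55 on the log2 scale for day 6 against day 0 (limma, adjusted p = 0.0211), a comparison in which 2.8% of 10353 genes were called, 93 higher and 197 lower (126 and 150 after median centring, 156 and 163 after quantile normalization). It was -3.21 ± 0.76 for day 3 against day 0 (limma, adjusted p = 0.0513), where 2.91% of 10212 genes were called, and it was -2.67 without replicate 1 of day 3 (limma, adjusted p = 0.0146). The day 3 interaction also passed with the replicate number as a block (limma, adjusted p = 0.0216), with all 18 libraries in 1 fit (0.0342), after median centring (0.0407) and after quantile normalization (0.0446). No other member passed either interaction test. Leaving out WT replicate 1 or 2 of day 0, DKI replicate 2 or 3 of day 0 or WT replicate 3 of day 6 raised the day 6 adjusted p to between 0.0527 and 0.0612.

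*Irf8* did not pass the test in any genotype comparison. It was 54.0, 90.4 and 184 RPKM in WT and 58.1, 78.0 and 142 RPKM in DKI monocytes. On day 3 it was 29.2, 65.0 and 31.2 RPKM in WT and 89.5, 26.9 and 41.0 RPKM in DKI MDCs, and on day 6 it was 115, 51.8 and 132 RPKM against 83.8, 28.6 and 57.7 RPKM. The groups overlapped on each day, and replicate 3 was highest in both genotypes on day 0. The log2 fold change of DKI over WT was -0.16 ± 0.52 on day 0, 0.24 ± 0.50 on day 3 (limma, adjusted p = 0.791) and -0.82 ± 0.49 on day 6 (limma, adjusted p = 0.321). On day 6 *Irf8* was lower in DKI in each same-numbered pair, at 0.731, 0.552 and 0.438 times the WT level, and with the replicate number as a block the adjusted p was 0.0697 (limma). On day 3 the sign rested on DKI replicate 1, without which the change was -0.23. In WT cells *Irf8* changed by -1.29 ± 0.49 from day 0 to day 3 (limma, adjusted p = 0.0643), and without WT replicate 1 of day 0 or WT replicate 2 of day 3 this change passed the test (limma, adjusted p = 0.0224 and 0.0416). In DKI cells it changed by -0.88 ± 0.50 (limma, adjusted p = 0.205), and without DKI replicate 1 of day 3 by -1.35 (limma, adjusted p = 0.0484).

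The ratio of *Irf4* to *Irf8* was taken within each library. *Irf8* was 16.7 to 35.3 times *Irf4* in all unstimulated libraries. In WT MDCs *Irf4* was 2.84, 2.19 and 3.86 times *Irf8* on day 3 and 0.937, 2.20 and 1.35 times on day 6. In DKI MDCs it was 0.0476, 0.915 and 0.579 times *Irf8* on day 3 and 0.133, 1.19 and 0.345 times on day 6. The groups did not overlap on day 3, and on day 6 DKI replicate 2 lay within the WT range. On the log2 scale with 1 RPKM added to each gene, the mean ratio differed by -3.17 on day 3 (exact two-sided permutation test, p = 0.1, the smallest that 3 against 3 libraries can give), by -1.83 on day 6 (exact permutation p = 0.2) and by 0.44 on day 0 (exact permutation p = 0.4). Without DKI replicate 1 the difference was -1.94 on day 3 and -1.11 on day 6.

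**Figure D2:**
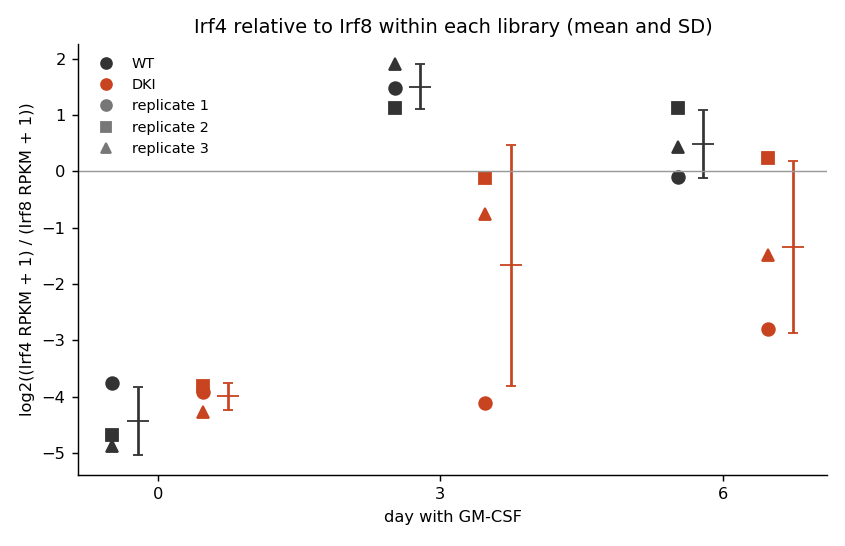
Log2 ratio of Irf4 to Irf8 (each RPKM + 1) in the 18 libraries by day with GM-CSF, WT in black and DKI in orange, with the replicate number as symbol and the mean with its SD beside the points. The 3 WT libraries of day 3 lie above the line of equal levels and the 3 DKI libraries below it.

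*Irf7*, itself an interferon-induced gene and a main driver of type I interferon transcription, was higher in DKI than in WT MDCs, the opposite direction from *Irf4*. It was 20.3, 42.8 and 43.5 RPKM in WT and 22.8, 65.8 and 40.5 RPKM in DKI monocytes, with overlapping ranges. WT MDCs had 10.5, 1.03 and 5.32 RPKM on day 3 and 5.27, 2.41 and 1.26 RPKM on day 6, whereas DKI MDCs had 1423, 117 and 20.1 RPKM on day 3 and 752, 43.9 and 60.0 RPKM on day 6. All DKI libraries lay above all WT libraries on both days, and the DKI libraries of day 3 spread over the widest range of any group. *Irf7* fell in WT cells from day 0 to day 3 by 2.71 on the log2 scale (limma, adjusted p = 0.0117), and with all 18 libraries in 1 fit this call was lost (adjusted p = 0.0854). The DKI change of 1.92 ± 1.41 did not pass (limma, adjusted p = 0.317), and without DKI replicate 1 of day 3 it was 0.30.

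The difference in *Irf7* between genotypes passed the test on day 6 and not on day 3, although with all 18 libraries in 1 fit it also passed on day 3 (limma, adjusted p = 0.0184). The log2 fold change was 4.85 ± 1.51 on day 3 (limma, adjusted p = 0.109) and 5.13 ± 1.07 on day 6 (limma, adjusted p = 0.0415). Same-numbered DKI libraries had 135, 114 and 3.78 times the WT level on day 3 and 143, 18.3 and 47.5 times on day 6. Without replicate 1 of both genotypes the change was 3.80 on day 3 (limma, adjusted p = 0.123) and 4.24 on day 6 (limma, adjusted p = 0.0411). Leaving out any WT library of day 6 or DKI replicate 3 ended the day 6 call, with adjusted p between 0.086 and 0.144. The interaction for day 6 against day 0 was 4.91 ± 1.28 (limma, adjusted p = 0.0707) and was 4.01 without replicate 1 of day 6 (limma, adjusted p = 0.0217). It passed after quantile normalization as well (limma, adjusted p = 0.0461).

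Type I interferon-stimulated genes mostly differed between the genotypes in MDCs in the same direction as *Irf7*. In WT cells, where *Irf7* fell from day 0 to day 3, their summed level overlapped between days. It was 259 to 444 RPKM on day 0, 232 to 409 RPKM on day 3 and 301 to 413 RPKM on day 6. From day 0 to day 3 in WT cells, 18 of the 22 tested had a negative log2 fold change, with a median of -0.44 beside -0.05 over all genes. On day 0, when no gene was called, 23 of the 24 tested had a positive log2 fold change of DKI over WT, with a median of 0.16 beside -0.0031 over all genes. On day 3, when 3.21% of all genes were called higher, all 25 listed genes had a positive log2 fold change of DKI over WT, with a median of 2.53 beside -0.11 over all genes, and 1 was called (*Oas2*, an antiviral synthetase, at 3.04 ± 0.68; limma, adjusted p = 0.0486). On day 6, 24 of 25 were positive, with a median of 1.98 beside -0.17, and 4 were called, beside 2.72% of all genes called higher: *Rtp4*, *Oasl2*, *Rsad2* and *Oas2*, with log2 fold changes of 4.59, 3.83, 3.77 and 2.93. On day 3 *Rtp4*, *Oasl2* and *Rsad2* were also called with all 18 libraries in 1 fit (limma, adjusted p = 0.00332, 0.0159 and 0.0143), and *Rtp4* after quantile normalization (0.0498) and without DKI replicate 3 (0.0343). The day 3 call of *Oas2* ended with the replicate number as a block (limma, adjusted p = 0.0537) and without any WT library, DKI replicate 1 or DKI replicate 2 (adjusted p between 0.0649 and 0.142). Median centring (0.0552), quantile normalization (0.057) and no filter on low values (0.0971) also ended it, as did leaving out replicate 1 of both genotypes (2.52; adjusted p = 0.128). Without the filter the day 6 calls of *Rtp4*, *Oasl2* and *Rsad2* were lost (adjusted p between 0.0576 and 0.0723), and without replicate 1 of both genotypes those of *Rsad2* and *Oas2* (both 0.11). Without replicate 1 the medians of the 25 genes were 1.56 on both days, beside -0.04 and -0.16 over all genes. On day 6, WT replicate 3 alone ended all 4 calls when left out, and WT replicate 1 ended all but that of *Rtp4*. WT replicate 2 ended those of *Oasl2* and *Rsad2*, DKI replicate 1 that of *Rtp4*, and DKI replicate 3 all but that of *Oas2*, with adjusted p between 0.0534 and 0.119 over these fits. All DKI libraries exceeded all WT libraries for 16 of the 25 genes on day 3, beside 13.4% of all genes tested. On day 6 this held for 21 of the 25, beside 10.6% of all genes. Without replicate 1 of both genotypes, which leaves 2 against 2 libraries, it held for 20 of them beside 24.7% of all genes on day 3 and for 22 beside 16.8% on day 6. *Ifnb1*, a gene chosen after its values were seen, was 3.57 RPKM in DKI replicate 1 of day 3, 0.692 RPKM in that of day 6 and at most 0.264 RPKM in the other libraries. Plasmacytoid dendritic cells are a cell type with high *Irf7*. Their 7 markers summed to 14.9 to 18.5 RPKM in WT and 10.2 to 18.6 RPKM in DKI MDCs on day 3, and to 13.4 to 33.9 and 8.69 to 47.5 RPKM on day 6, with overlap on both days. Among them *Siglech* was at most 0.532 RPKM and *Ccr9* at most 0.152 RPKM in any library, while *Tcf4* was between 5.16 and 18.3 RPKM, *Pacsin1* reached 14.9 RPKM in WT replicate 3 of day 6 and *Cox6a2* reached 34.5 RPKM in DKI replicate 3 of day 6. The 7 macrophage markers summed to 219 to 981 RPKM in WT and 1387 to 5324 RPKM in DKI MDCs on day 3, without overlap. On day 6 they summed to 370 to 2551 and 1424 to 6063 RPKM, with overlap through WT replicate 1. Read singly after seeing the data, *Adgre1* was 205 to 349 RPKM in WT and 378 to 429 RPKM in DKI on day 6. *Mertk* was 3.94 to 17.2 and 24.5 to 54.8 RPKM and *Mrc1* 29.9 to 60.8 and 275 to 487 RPKM, each without overlap. *Fcgr1*, *C1qa*, *C1qb* and *C1qc* overlapped on that day. The part of these cell types in the *Irf7* difference was not tested.

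**Figure D3:**
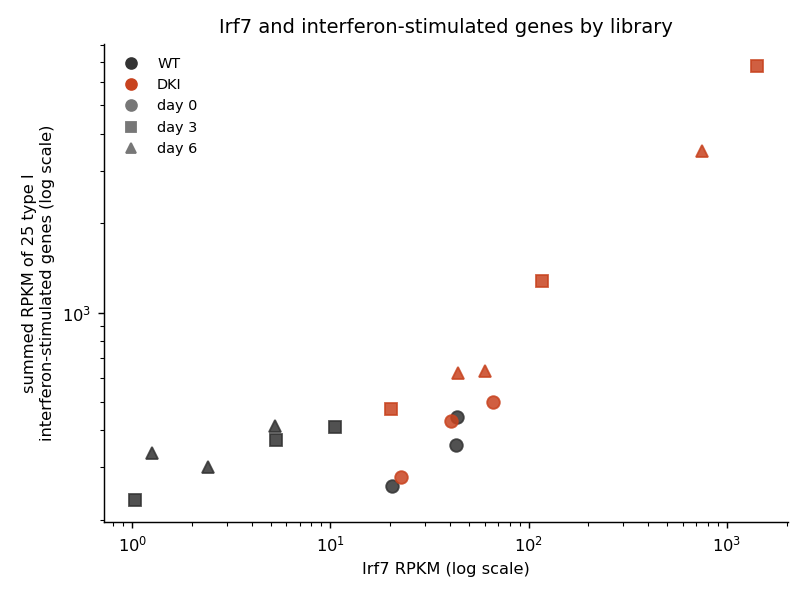
Irf7 RPKM against the summed RPKM of 25 type I interferon-stimulated genes in the 18 libraries (both log axes), WT in black and DKI in orange, with the day as symbol. DKI replicate 1 lies farthest to the upper right, at 1423 RPKM of Irf7 and 6808 RPKM summed on day 3, and all WT MDC libraries lie at or below 10.5 RPKM of Irf7.

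Among the other members, *Irf5*, which carries Toll-like receptor signals to inflammatory cytokine genes, was the only member besides *Irf4* called lower in DKI MDCs on both days. It was 256, 283 and 310 RPKM in WT and 110, 136 and 135 RPKM in DKI on day 3, and 211, 186 and 259 against 121, 108 and 107 RPKM on day 6. The groups did not overlap on either day and the replicates lay close together. The log2 fold change was -1.15 ± 0.18 on day 3 (limma, adjusted p = 0.0197) and -0.95 ± 0.18 on day 6 (limma, adjusted p = 0.0362). The day 6 call was lost with the replicate number as a block (limma, adjusted p = 0.0534), after median centring of libraries (-0.80; limma, adjusted p = 0.0664) and without replicate 1 of both genotypes (-1.02; limma, adjusted p = 0.187). Leaving out any WT library or DKI replicate 2 or 3 ended the day 3 call, with adjusted p between 0.0504 and 0.0795, and leaving out any library of day 6 except WT replicate 2 ended the day 6 call, with adjusted p between 0.0571 and 0.12. *Irf5* fell in DKI cells from day 0 to day 3 by 0.94 on the log2 scale (limma, adjusted p = 0.0338), a call that ended without any of the 6 libraries (adjusted p between 0.0508 and 0.0896), while the WT change was 0.23 ± 0.23. *Irf5* overlaps *Tnpo3* in the annotation, and reads there could be assigned to either gene.

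*Irf1* was 8.46, 16.8 and 10.6 RPKM in WT and 78.5, 27.7 and 25.6 RPKM in DKI MDCs on day 3, without overlap, and 20.4, 16.4 and 13.3 RPKM against 51.8, 20.6 and 18.8 RPKM on day 6, with overlap. Neither difference passed the test (1.65 ± 0.47; limma, adjusted p = 0.087 on day 3, and 0.69 ± 0.40; limma, adjusted p = 0.294 on day 6). With all 18 libraries in 1 fit the day 3 difference passed (limma, adjusted p = 0.0392), and without replicate 1 of both genotypes it was 0.95 (limma, adjusted p = 0.115). In WT cells *Irf1* fell by 1.42 on the log2 scale from day 0 to day 3 (limma, adjusted p = 0.0252), a call lost without WT replicate 1 of day 3 (adjusted p = 0.0796), without WT replicate 3 of day 3 (adjusted p = 0.0791) and without the filter on low values (adjusted p = 0.0532). *Irf9* fell in WT cells by 0.69 over the same days (limma, adjusted p = 0.0343), a call that ended when any library except WT replicate 2 of day 0 was left out (adjusted p between 0.0539 and 0.0992). In DKI cells its change was -0.52 ± 0.27 (limma, adjusted p = 0.17), and without DKI replicate 1 of day 3 it was -0.77 (limma, adjusted p = 0.035).

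*Irf2* and *Irf3* varied least. *Irf2* stayed between 44.6 and 83.2 RPKM and *Irf3* between 10.6 and 18.6 RPKM over the 18 libraries, and neither passed a test in any comparison. The DKI libraries lay below the WT libraries for *Irf3* on both days, with log2 fold changes of -0.43 ± 0.14 (limma, adjusted p = 0.121) and -0.34 ± 0.15 (limma, adjusted p = 0.2). *Irf9* was between 20.9 and 42.4 RPKM in MDCs, and its groups overlapped on both days.

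In all, 2 of 8 members were called between genotypes on day 3, both lower, where 7.42% of 9740 genes were called and 4.21% were called lower. On day 6 there were 3 of 8, 2 lower and 1 higher, where 7.54% of 9842 genes were called, 4.82% lower and 2.72% higher. The genotypes did not overlap for 5 of 8 members on day 3, beside 36.3% of all genes, and for 4 of 8 on day 6, beside 37.2%. Over all genes, 268 were called higher and 474 lower on day 6, and this split was 323 to 285 after median centring and 342 to 310 after quantile normalization. From day 0 to day 3, 4 of 8 members were called in WT cells, where 43.1% of 9938 genes were called, and 1 of 8 in DKI cells (*Irf5*), where 34.2% of 9922 genes were called. Without DKI replicate 1 of day 3 the DKI calls were *Irf4*, *Irf8* and *Irf9*, and *Irf5* was lost (limma, adjusted p = 0.06). Over all genes the DKI calls were 1297 higher and 2097 lower, and 1743 to 1622 after median centring. From day 3 to day 6 no member was called in either genotype, where 0% of 9613 and 9540 genes were called. There 722 WT and 93 DKI genes had an unadjusted p under 0.05, and a fit of all 18 libraries called 16 WT genes. These comparisons share libraries and are not independent. The median of all genes was -0.11 on day 3 and -0.17 on day 6 for DKI over WT, and a member's difference of that size equals the shift of the whole table.

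**Figure D4:**
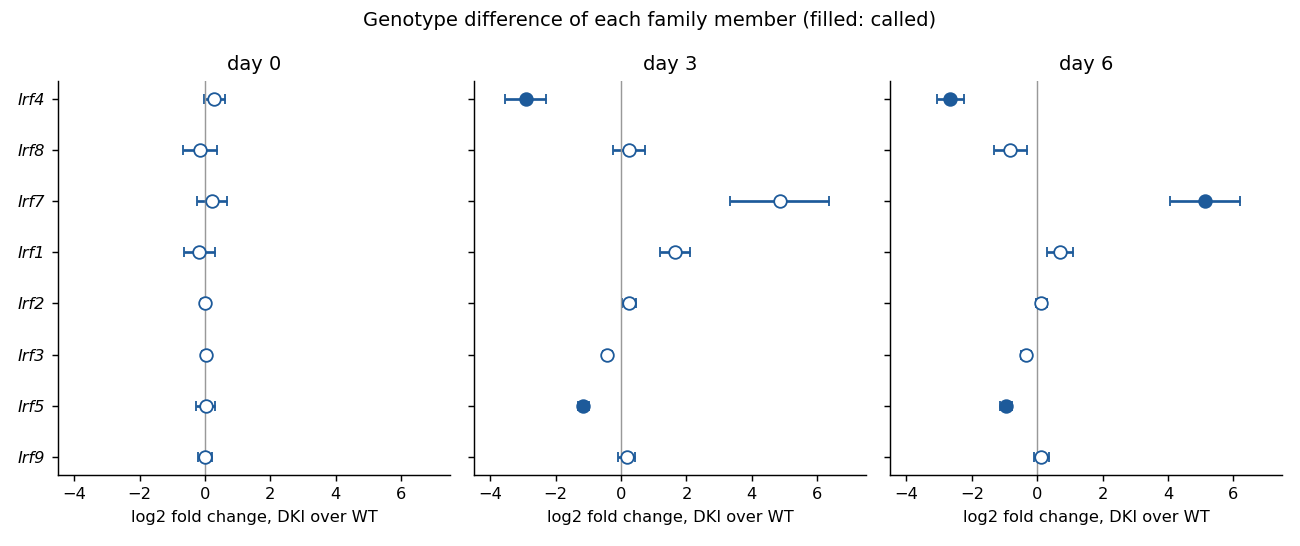
Log2 fold change of DKI over WT for each family member on days 0, 3 and 6, with SE bars and filled points for genes called by limma. Filled points are Irf4 and Irf5 on day 3 and Irf4, Irf7 and Irf5 on day 6.

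The make-up of family mRNA differed between groups. *Irf5* made up 46.3% ± 11.2 (SD, n = 3) of the summed RPKM of the 8 genes in WT monocytes and 50.7% ± 3.26 in WT MDCs of day 3. Its share was 38.1% ± 1.71 in WT MDCs of day 6, and 25.6% ± 17.5 and 23.7% ± 11.4 in DKI MDCs of days 3 and 6. In DKI replicate 1 of day 3 it was 5.96%. *Irf4* made up 0.685% ± 0.222 of it in WT monocytes, 20.4% ± 3.66 in WT MDCs of day 3 and 4.28% ± 3.56 in DKI MDCs of day 3. *Irf7* made up between 5.86% and 77.2% in the DKI libraries of day 3 and between 0.172% and 2.1% in the WT libraries. The summed RPKM of the 8 genes was 343 to 1843 in DKI and 501 to 598 in WT MDCs of day 3.

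**Figure D5:**
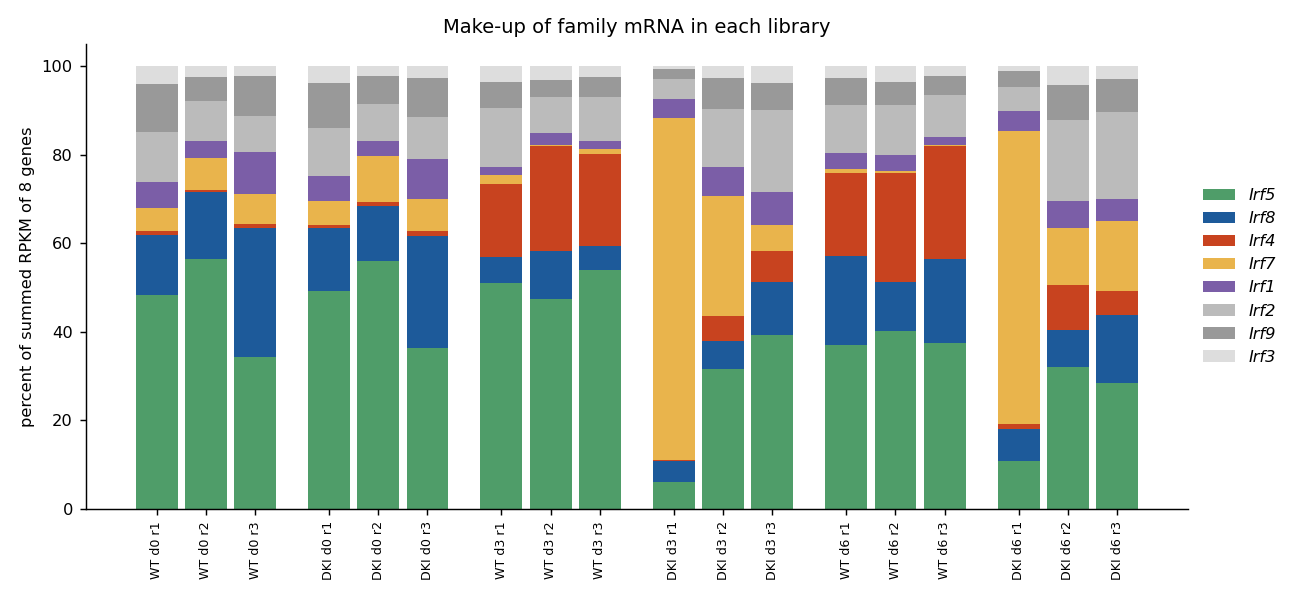
Share of each member in the summed RPKM of the 8 genes, in percent, with a bar for each of the 18 libraries (r1 to r3 are the replicates, d0 to d6 the days). Irf4 takes 16.5 to 23.8% in the WT libraries of day 3, and Irf7 takes 77.2% in DKI replicate 1 of day 3.

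Partners and signalling genes were read from lists of the same pathway. Of 16 partner transcription factors, 14 were tested on day 3, where 1 was called lower (*Jund*, -1.31 ± 0.23; limma, adjusted p = 0.0265) beside 4.21% of all genes. On day 6, 15 were tested and 2 were called higher beside 2.72% of all genes, and these were *Fos* (3.03 ± 0.53; limma, adjusted p = 0.0288) and *Jun* (1.31 ± 0.16; limma, adjusted p = 0.0143). These genes encode AP-1 subunits. With the replicate number as a block, *Jund* was no longer called on day 3 (limma, adjusted p = 0.0552) and *Fos* was (limma, adjusted p = 0.04). With all 18 libraries in 1 fit *Fos* was called on day 3 (0.0351), and without DKI replicate 3 of day 3 *Fos* (0.0495) and *Jun* (0.0312) were. *Jund* was called on day 6 without DKI replicate 2 (0.0453). The *Jund* call also ended without any library of day 3 except DKI replicate 1 (adjusted p between 0.0515 and 0.0986), the *Fos* call without any library of day 6 except DKI replicate 2 (0.0558 to 0.0925), and the *Jun* call without WT replicate 1, WT replicate 3 or DKI replicate 3 (0.0588 to 0.0702). With all 18 libraries in 1 fit *Jun* was not called on day 6 (adjusted p = 0.132), without the filter *Fos* was not (0.0626), and without replicate 1 of both genotypes neither *Fos* (0.138) nor *Jun* (0.134) was called on day 6, nor *Jund* (0.0566) on day 3. *Spi1*, which encodes PU.1, was between 217 and 425 RPKM in all libraries. The medians of this list were 0.08 on day 3 and -0.03 on day 6, and without replicate 1 of both genotypes -0.02 and -0.14, beside -0.04 and -0.16 over all genes.

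Of 20 genes that signal to IRF3, IRF5 and IRF7, none was called on either day, when 7.42% (day 3) and 7.54% (day 6) of all genes were. The medians were 0.13 and 0.06 beside -0.11 and -0.17 over all genes, and 0.06 and 0.04 beside -0.04 and -0.16 without replicate 1 of both genotypes. *Unc93b1*, a carrier of endosomal Toll-like receptors, changed by 1.07 ± 0.31 on day 3 (limma, adjusted p = 0.0964) and *Myd88*, a Toll-like receptor adaptor, by -0.55 ± 0.20 (limma, adjusted p = 0.152). *Unc93b1* passed with all 18 libraries in 1 fit on day 3 (0.0302) and day 6 (0.0497) and without DKI replicate 2 on day 6 (0.0499), and *Myd88* passed on day 3 without DKI replicate 1 (-0.72; adjusted p = 0.046). Of 9 genes for interferon receptors, JAKs and STATs, *Jak2*, the kinase of the GM-CSF and interferon gamma receptors, was the 1 called lower on both days, beside 4.21% of all genes on day 3 and 4.82% on day 6. It was 289, 321 and 294 RPKM in WT and 62.5, 65.3 and 82.4 RPKM in DKI MDCs on day 3, a log2 fold change of -2.10 ± 0.18 (limma, adjusted p = 0.00477), and the change on day 6 was -2.38 ± 0.32 (limma, adjusted p = 0.0162). The day 3 call of *Jak2* held without each library in turn, and the day 6 call ended without WT replicate 1, WT replicate 3 or DKI replicate 3 (adjusted p between 0.0559 and 0.0701) and without replicate 1 of both genotypes (0.134). *Ifngr1* changed by 1.18 ± 0.32 on day 3 (limma, adjusted p = 0.0765), which passed with all 18 libraries in 1 fit (0.0133), as did its day 6 change in that fit (0.0172) and without DKI replicate 2 (0.0382). The medians of this list were 0.59 on day 3 and 0.37 on day 6, and 0.42 and 0.18 without replicate 1 of both genotypes, beside the same medians over all genes.

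Of 20 interferon gamma-inducible genes, 18 were tested, with medians of 1.19 on day 3 and 0.48 on day 6 beside -0.11 and -0.17 over all genes. Without replicate 1 of both genotypes the medians were 0.65 and 0.10. The summed level was 2853, 649 and 608 RPKM in DKI and 844 to 973 RPKM in WT MDCs on day 3, and 1482, 621 and 479 RPKM against 765 to 1101 RPKM on day 6. DKI replicate 1 lay above all WT libraries and the other DKI libraries below them. Only *Socs1*, an inhibitor of JAK signalling that STAT5 also induces, was called, and it was lower in DKI on day 6 (-1.64 ± 0.27; limma, adjusted p = 0.0268), which is 1 of 18 beside 4.82% of all genes called lower. Leaving out any WT library of day 6 ended this call (adjusted p between 0.0509 and 0.101), as did leaving out replicate 1 of both genotypes (0.125) and the filter (0.0547). On day 3 the change of *Socs1* was -1.03 ± 0.35 (limma, adjusted p = 0.129), and it passed without DKI replicate 1 (-1.41; 0.0195), without replicate 1 of both genotypes (-1.57; 0.0256) and with all 18 libraries in 1 fit (0.0257). *Psmb8*, an immunoproteasome subunit, changed by -0.69 ± 0.31 on day 3 (limma, adjusted p = 0.224). Without DKI replicate 1 it was called (-1.02; limma, adjusted p = 0.0227), and without replicate 1 of both genotypes the adjusted p was 0.0546 (limma).

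The genes whose log2(RPKM + 1) followed a member most closely over the 18 libraries were ranked among 10417 genes, as a description of libraries that share groups and experiments. For *Irf4* they were *Camk2g*, *Hint3*, *Rras2*, *Zfp862-ps* and *Mpzl3*, with Pearson's r from 0.974 to 0.987. For *Irf7* they were *Slfn8*, *Rnf213*, *Stard3*, *Rsad2* and *Xaf1*, with r from 0.952 to 0.98, of which *Rsad2* and *Xaf1* were also in the list of type I interferon-stimulated genes. For *Irf8* they were *Phyh*, *Nrbf2*, *Rnaset2b*, *Ptger4* and *Eps15*, with r from 0.838 to 0.911, lower than the closest genes of *Irf4* and *Irf7*. *Rnaset2b* has a near-identical copy, so its level is uncertain.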

How the data were processed

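RNA was measured in 18 libraries of 6 groups. Reads were mapped to mm10 with Subread and assigned to RefSeq genes with featureCounts, and the authors deposited RPKM values. Versions, strandedness and the handling of shared reads are not given in the sources used here, so the counting of overlapping genes is uncertain. RPKM holds no read totals, and depth was estimated from 1111 short receptor genes whose smallest values correspond to 1 read. A floor of 3 reads on a gene of 1 kb is 0.102 RPKM at the lowest depth, for counting error only.

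The authors tested counts with edgeR. Here log2(RPKM + 1) was fitted with limma 3.58.1 in R 4.3.3 (eBayes with trend) on the libraries of each comparison, for genes with a mean RPKM above 2 in a compared group. Calls needed a Benjamini-Hochberg adjusted p under 0.05 over all fitted genes and a fold change above 1.5. Changes of weakly expressed genes come out too small on this scale. The ratio used exact permutation tests. The steps were tested on simulated data. Figures were made in Python 3.11.15.

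Members and gene lists were chosen with earlier results of these data known. All 8 members were named, and from each pathway list up to 4 genes called on day 3 or 6, by the size of the day 6 change, or the 2 most abundant if fewer were called. *Irak1*, *Tlr7*, *Hbb-bt* and *Alas2* were not analysed here. On each day, WT and DKI libraries with the same label number had correlated deviations from their groups (0.163 to 0.865), and the numbers were taken to pair the genotypes. The labels do not state that the replicates of a group are different animals, so p-values measure the spread between these libraries.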

Additional observations from a re-analysis of the deposited data

Results flagged for a closer look

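The change with GM-CSF differed between the genotypes by a direct test (limma, interaction of genotype with time) for *Irf4*, with -2.94 on the log2 scale for day 6 against day 0. Among the pathway genes named, it also differed for *Jak2*, with -2.11 for day 3 and -2.40 for day 6 against day 0 (adjusted p = 0.00773 and 0.0186). For day 6 against day 0 it differed for *Socs1*, with -1.56 (adjusted p = 0.028), for *Oas2*, with 2.53 (adjusted p = 0.0183), for *Rtp4*, with 4.42 (adjusted p = 0.0243), and for *Rsad2*, with 3.72 (adjusted p = 0.0488). For the interferon-stimulated genes, DKI replicate 1 of day 6 held the highest value of its group.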

How the results depend on the processing

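Of 432 values for the members under 6 other settings with all libraries, 405 kept direction and call, 12 lost a call, 9 gained one and 6 changed sign. No call changed sign. The changes of sign were those of differences near 0: *Irf2* and *Irf9* on day 0 between genotypes (-0.0157 and -0.0043 after median centring, -0.0034 and -0.00296 after quantile normalization) and *Irf2* from day 3 to day 6 in DKI cells (0.0287 and 0.0568). Without replicate 1 of both groups, a setting added after seeing the data, *Irf8* was -0.43 between genotypes on day 3 and -0.27 in the day 3 interaction, and from day 3 to day 6 in DKI cells *Irf2* was 0.16, *Irf3* -0.0013 and *Irf7* 0.0688. Limits: RPKM gives no count model, and with 3 libraries a group many calls lie near the threshold. Without a filter on low values, *Irf4* was lost on day 3 (adjusted p = 0.0901), and *Irf4*, *Irf5* and *Irf7* were lost on day 6 (adjusted p between 0.0526 and 0.0849). The cause was not tested.

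Calls between genotypes numbered 1359 (day 3) and 1573 (day 6) with all 18 libraries in the fit, against 723 and 742 in the fits by day, and 358 and 187 without the filter. With all libraries fitted the count was 6 on day 0 and 16 from day 3 to day 6 in WT cells. Without replicate 1 of both genotypes it was 369 on day 3 and 38 on day 6. With the replicate block it was 551 on day 3 and 719 on day 6. The block moved the adjusted p of *Irf4* in DKI cells from day 0 to day 3 to 0.0499 and in the day 3 interaction to 0.0216, both then past the threshold. The block ended the calls of *Jund* and *Oas2* and added *Fos* on day 3. Apart from these and *Irf5* on day 6 it changed no other call of a member in any comparison or of the 13 named pathway genes between genotypes on days 3 and 6. The interaction values of pathway genes were not refitted with the block or without replicate 1. Numbers did not pair day 0 with day 3, where correlations ran between -0.208 and 0.180.

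Leaving out single libraries gave 197 to 715 genes called between genotypes on day 3, 90 to 984 on day 6, 0 to 1 from day 3 to day 6 in WT cells, 1976 to 3412 from day 0 to day 3 in DKI cells, and 125 to 336 and 117 to 664 in the interactions of day 3 and day 6. Differences that changed sign without a single library had these log2 ranges. Between genotypes on day 0 they were -0.56 to 0.27 for *Irf1*, -0.0726 to 0.0775 for *Irf2*, -0.0101 to 0.10 for *Irf3*, -0.23 to 0.26 for *Irf5*, -0.14 to 0.60 for *Irf7*, -0.57 to 0.30 for *Irf8* and -0.18 to 0.21 for *Irf9*. Later they were -0.23 to 0.62 for *Irf8* and -0.0693 to 0.43 for *Irf9* (day 3) and -0.0698 to 0.24 for *Irf9* (day 6). In WT cells from day 3 to day 6 they were -0.0525 to 0.20 for *Irf2*, -0.0218 to 0.37 for *Irf4* and -1.23 to 0.0244 for *Irf7*. In DKI cells *Irf1* ranged over -0.10 to 0.80 from day 0 to day 3, and from day 3 to day 6 the ranges were -0.92 to 0.0323 for *Irf1*, -0.16 to 0.11 for *Irf2*, -0.0923 to 0.12 for *Irf3*, -0.28 to 0.86 for *Irf4*, -1.69 to 1.35 for *Irf7*, -0.22 to 0.63 for *Irf8* and -0.17 to 0.32 for *Irf9*. In the interactions they were -0.065 to 0.82 for *Irf8* and -0.0809 to 0.41 for *Irf9* (day 3) and -0.0826 to 0.30 for *Irf9* (day 6).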
